A study of Mus musculus with 4 samples.

Results

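The genes described here are 33 that make cholesterol, sense it, move it within the cell or pass it in and out of the cell. They were found by symbol among the 35857 genes listed in each table, and each symbol matched 1 row. The tables came from cultured mouse cells of strain C57BL/6, neural stem cells from embryonic cerebral cortex taken 24 hr after glial differentiation was induced and named glial progenitors at day1 by their source. The 2 libraries called Qk_KO had the genotype Qk-/-, and the 2 control libraries were wild type. Qk encodes Quaking, an RNA-binding protein. How Qk was deleted is not given in the sources used here, and the labels leave unsaid whether replicates were separate cultures. The p-values therefore measure only the spread between these libraries. The 2 Qk_KO libraries differed in sex-linked transcripts, as given below, so they were not repeats of 1 RNA sample. The control libraries differed too, in cell type lists given below. Neuron genes summed to 509 TPM in control replicate 1 and 321 TPM in control replicate 2. Oligodendrocyte lineage genes went the other way, at 300.2 and 355 TPM. Whether the spread between the control libraries was technical was not tested. Levels are in TPM, transcripts per 1000000, a share of all transcripts corrected for transcript length. TPM keeps no read depth, so no counting interval can be given.

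Cholesterol is made from acetyl-CoA through mevalonate, squalene and lanosterol. When membranes hold little sterol, the escort protein SCAP carries the transcription factor SREBP from the endoplasmic reticulum to the Golgi for cleavage, and INSIG proteins hold the complex back when sterol is abundant. Genes of the synthesis enzymes are classical SREBP2 targets and tend to move together. Surplus sterol activates LXR receptors, which raise the efflux pumps ABCA1 and ABCG1, and in the brain lipid is carried between cells on particles built around apolipoprotein E. Glia produce much of the brain's sterol, and myelin is the largest store of it. In mouse oligodendrocytes and lens, Quaking has been described as a partner of SREBP2 at cholesterol genes.

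Testing was limited to genes whose 4 libraries averaged 1 TPM or more, which 32 of the 33 genes reached and the efflux pump gene Abcg1 did not. In the Qk_KO libraries, Hmgcs1, the HMG-CoA synthase of the early pathway, fell to 50.1% of its control level, and Ebp, the sterol isomerase late in the pathway, rose 2.07-fold. The other 30 members tested were not called, among them Apoe, the lipoprotein gene, at 32.8% of control. The remaining synthesis enzymes did not move as a block between the groups. Most were lowest of all in Qk_KO replicate 1, while many were highest of all in Qk_KO replicate 2. Tests were read from limma's moderated fit over all 13260 genes past that limit, two-sided, with Benjamini-Hochberg adjustment and a threshold of 0.05. Percentages of control and linear folds are ratios of mean TPM, whereas log2 fold changes are differences of mean log2(TPM + 1), so those of weakly expressed genes are understated. Of all genes tested, 1.83% were called higher and 1.42% lower in Qk_KO, against 1 higher and 1 lower among the 32 members, numbers near those shares.

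The promoters of the 2 called genes are shown because their windows can be compared with the sterol response motif through which SREBP acts. They are RefSeq windows of GRCm38.p6, from 250 bases before to 50 bases after an annotated start, on the gene's strand. Capitals mark matches on either strand to TCACNCCAC (a consensus of the sterol regulatory element, SRE), CCAAT (the box bound by NF-Y) and GGGCGG (the GC box bound by Sp1). The first lies at chr13:119690101-119690400 on the plus strand and the second at chrX:8193463-8193762 on the minus strand.

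Hmgcs1: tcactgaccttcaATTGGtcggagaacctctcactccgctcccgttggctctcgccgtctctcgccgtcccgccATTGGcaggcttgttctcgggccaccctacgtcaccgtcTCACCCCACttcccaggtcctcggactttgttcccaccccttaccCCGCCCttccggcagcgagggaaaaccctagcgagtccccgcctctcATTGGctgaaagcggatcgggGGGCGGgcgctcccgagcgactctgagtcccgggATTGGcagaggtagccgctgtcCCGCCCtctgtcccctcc

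Ebp: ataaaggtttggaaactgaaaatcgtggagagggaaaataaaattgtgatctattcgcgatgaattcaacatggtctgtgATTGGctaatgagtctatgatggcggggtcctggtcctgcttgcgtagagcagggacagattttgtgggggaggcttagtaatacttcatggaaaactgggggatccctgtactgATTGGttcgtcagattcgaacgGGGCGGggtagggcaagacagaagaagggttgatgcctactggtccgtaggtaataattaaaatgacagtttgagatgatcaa

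The Hmgcs1 window held an SRE match starting at base -137 from the RefSeq start site, 4 CCAAT matches and 3 GC box matches. Bases just after that start were not found in GENCODE transcripts of Hmgcs1, whereas those of the Ebp window were found in Ebp transcripts. The Ebp window held 2 CCAAT matches, 1 GC box match and no SRE match. Windows were found for 26 of the 33 members. The 26 members had 36 windows, since several have more than 1. Hmgcs1 was the 1 member of these 26 with an SRE match, in 1 of the 36 windows (2.78%), beside 1.24% of all 32851 windows. Looser forms of the SRE were not searched. A CCAAT match was present in 22 of these 36 (61.1%), beside 37.4% of all windows, and a GC box match in 27 of 36 (75.0%), beside 35.7% of all windows. The windows were not matched for base composition, and these shares were not tested. The 3 motifs did not overlap one another in the printed windows, and a match describes letters only.

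Qk itself was at 36.1 and 43.7 TPM in the Qk_KO libraries, against 208 and 215 TPM in the control libraries, so all 4 libraries lay on the side of their labels. The log2 fold change was -2.38 (SE 0.12, limma, Benjamini-Hochberg adjusted p = 0.00708, n = 2 per group), and this call was lost without control replicate 1 (0.0554) without control replicate 2 (0.0772) and when weakly expressed genes were kept in (0.108). The 12 genes of a glial progenitor and radial glia list were detected in every library and summed to 7283 and 7268 TPM in Qk_KO and 7341 and 7023 TPM in control. Vim and Fabp7 made up most of that sum, and within the list Slc1a3 fell to 34.5% of control and Pax6 rose to 226% of control, while the other 10 were not called. The 8 astrocyte genes were mixed: Aqp4 was called higher, the uncalled Aldh1l1 was at 229 and 108 TPM in Qk_KO and 52.0 and 32.9 TPM in control, and the uncalled S100b and Gja1 were at 10.7% and 51.8% of control. Their sum was 548 and 511 TPM in Qk_KO and 394 and 419 TPM in control. The 8 neuron genes summed to 792 and 720.5 TPM in Qk_KO and 509 and 321 TPM in control. Among them Ina and Snap25 were called higher, at 396% and 223% of control, and no other was called. The 9 oligodendrocyte lineage genes, of which Mog was at 0 in all 4 libraries, summed to 155 and 205 TPM in Qk_KO and 300.2 and 355 TPM in control. Pdgfra and Lhfpl3 of that list were called lower, at 19.7% and 59.5% of control, and no other was called. Endothelial and ependymal lists summed to at most 25.2 TPM in any library. Folr1, from the list of ependymal and choroid plexus genes, was called higher, at 5.65 and 3.93 TPM in Qk_KO and 0.33 and 0.44 TPM in control. No other gene of these 2 lists was called. The part of these cell types in the results below was not tested. Qk_KO replicate 1 had next to no Xist, at 0.04 TPM, and it alone had Eif2s3y of the Y chromosome, at 35.4 TPM. Xist was at 62.5 TPM in Qk_KO replicate 2, and at 62.2 and 57.6 TPM in the controls. These differences in sex-linked transcripts and any other difference between the 2 Qk_KO libraries cannot be told apart.

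**Figure D1:**
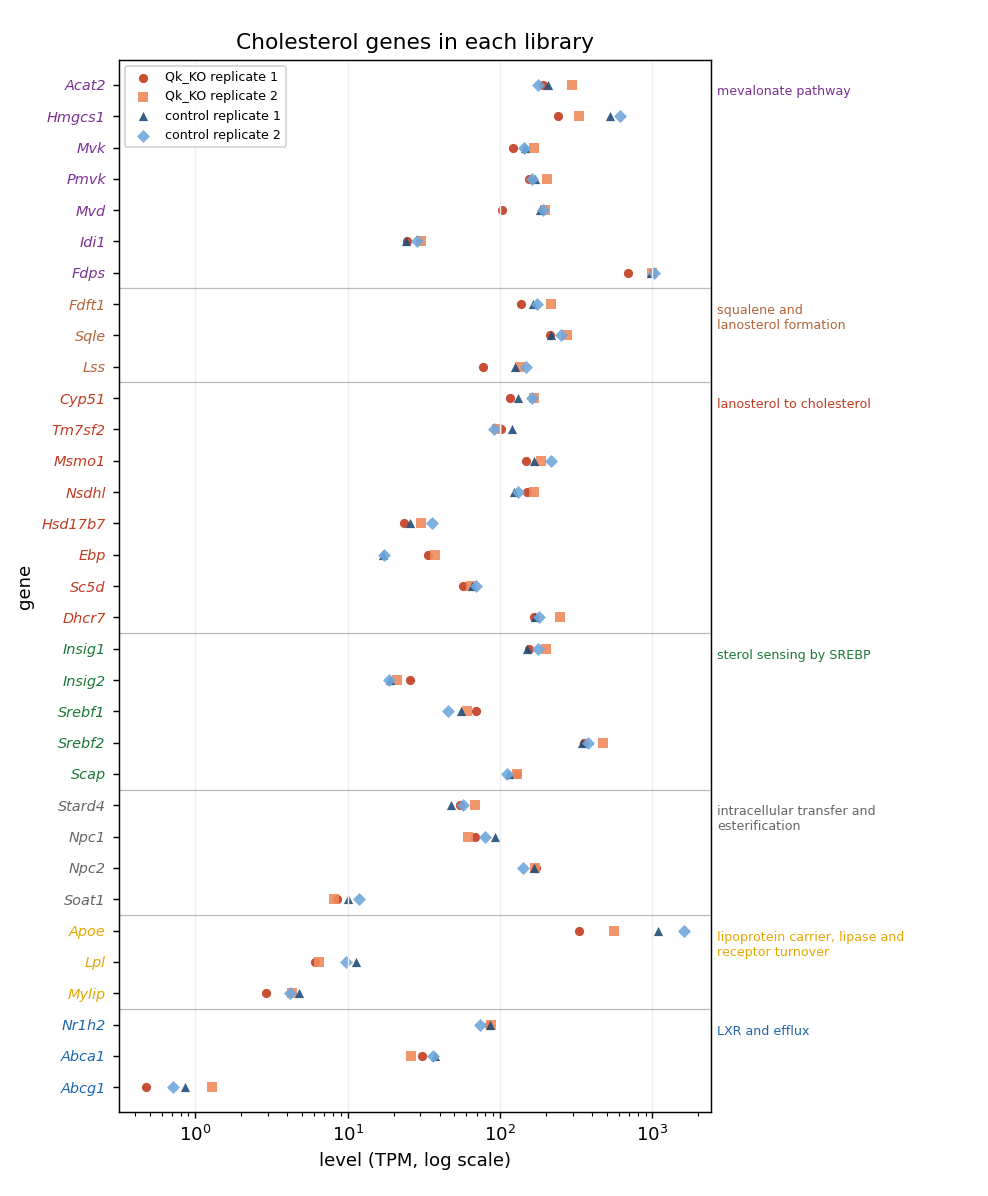
Level of each of the 33 members in each library, in TPM on a log scale, 1 point per library, with genes ordered and coloured by role. Fdps and Apoe are the most abundant members and Abcg1 the least, and the Hmgcs1, Apoe and Ebp points of the 2 groups lie clearly apart.

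The mevalonate branch was measured by 7 genes. Hmgcs1 (Entrez gene 208715, chromosome 13, 119690351 to 119708260, GRCm38.p6) had 239.8 and 331 TPM in the Qk_KO libraries, against 524 and 615 TPM in the control libraries. The groups did not overlap, and Qk_KO was the lower one. Its log2 fold change was -1.01 (SE 0.18, limma, Benjamini-Hochberg adjusted p = 0.0493, n = 2 per group), from means of 285 ± 64.4 TPM in Qk_KO and 569 ± 64.4 TPM in control (SD). The call sat at the threshold. It held without Qk_KO replicate 2 (adjusted p = 0.0484) and was lost without Qk_KO replicate 1 (0.0845), control replicate 1 (0.111) or control replicate 2 (0.288), with log2 fold changes between -1.24 and -0.78.

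No other gene of this branch was called. Fdps, the farnesyl diphosphate synthase and the most abundant member, was at 686 and 998 TPM in Qk_KO, against 971 and 1029 TPM in control. Mvd, the mevalonate decarboxylase, stood at 104 and 197 TPM in Qk_KO and at 181 and 189.9 TPM in control. In both genes Qk_KO replicate 1 was the lowest library, whereas Qk_KO replicate 2 lay between the controls for Fdps and just above them for Mvd. Acat2, a cytosolic thiolase at the entry to the pathway, had the opposite odd library: 192 and 298 TPM in Qk_KO and 205 and 178 TPM in control, so only Qk_KO replicate 2 stood out. The kinase genes had narrower spans. Mvk was at 122 and 167 TPM in Qk_KO and 145 and 144 TPM in control, and Pmvk at 155 and 204 TPM in Qk_KO and 170.0 and 161 TPM in control. Both kinases were lowest in Qk_KO replicate 1 and highest in Qk_KO replicate 2. Idi1, the isomerase of the branch, was at 24.5 and 30.1 TPM in Qk_KO and 24.2 and 28.3 TPM in control, with overlapping groups.

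Squalene and lanosterol formation was measured by Fdft1, Sqle and Lss, which encode squalene synthase, squalene epoxidase and lanosterol synthase. Fdft1 was at 138 and 217 TPM in Qk_KO, against 163 and 175 TPM in control. Sqle was at 211 and 274 TPM in Qk_KO, against 215 and 249 TPM in control. In these genes the Qk_KO values enclosed the control values. Lss was at 76.8 and 134 TPM in Qk_KO and 125 and 149 TPM in control, with Qk_KO replicate 1 apart from the other 3 libraries. Log2 fold changes of the 3 genes ran from -0.42 to 0.06, with adjusted p between 0.342 and 0.938 (limma, Benjamini-Hochberg).

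Of the 8 genes that convert lanosterol to cholesterol, Ebp was called. Ebp (Entrez gene 13595, chromosome X, 8185329 to 8193512, GRCm38.p6) was at 33.8 and 37.3 TPM in the Qk_KO libraries, against 17.0 and 17.4 TPM in the control libraries. Libraries of a group lay close together and the groups did not overlap. The log2 fold change was 1.005 (SE 0.11, limma, Benjamini-Hochberg adjusted p = 0.0324), from means of 35.5 ± 2.44 TPM in Qk_KO and 17.2 ± 0.262 TPM in control (SD, n = 2 each). Qk_KO replicate 2 stood 1.07 log2 units over the control mean, and Qk_KO replicate 1 stood 0.94 over it. The part of the difference in sex-linked transcripts in the Ebp level was not tested. The call was lost without any 1 of the libraries: adjusted p was 0.0627 without Qk_KO replicate 1, 0.0643 without Qk_KO replicate 2, 0.0986 without control replicate 1 and 0.229 without control replicate 2, at log2 fold changes between 0.94 and 1.07.

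Nsdhl, a sterol dehydrogenase gene that also lies on chromosome X, was at 149.7 and 167 TPM in Qk_KO, against 123 and 131 TPM in control. Its groups did not overlap, and its log2 fold change of 0.32 (SE 0.10) had an adjusted p of 0.120 (limma, Benjamini-Hochberg). Sc5d, a sterol desaturase gene, was at 56.9 and 64.7 TPM in Qk_KO and 65.7 and 69.4 TPM in control, below both controls in each Qk_KO library by a small margin. Dhcr7, the reductase of the last steps, was at 167 and 247 TPM in Qk_KO and 169 and 180.3 TPM in control. Cyp51, the lanosterol demethylase, was at 116 and 168 TPM in Qk_KO and 130.4 and 162 TPM in control. Qk_KO replicate 1 was the lowest library and Qk_KO replicate 2 the highest for both of these genes. Msmo1, the sterol oxidase, was at 148 and 186 TPM in Qk_KO and 166 and 215 TPM in control, and Hsd17b7, a ketosteroid reductase, at 23.3 and 30.2 TPM in Qk_KO and 25.8 and 35.5 TPM in control. For these the controls differed from each other about as much as the Qk_KO libraries did. Tm7sf2, a sterol reductase gene, was at 101 and 95.9 TPM in Qk_KO and 119.9 and 91.1 TPM in control, and it was the 1 synthesis enzyme with its lower Qk_KO value in replicate 2.

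Read as a pathway, the 18 synthesis enzymes had a median log2 fold change of -0.04, beside 0.04 over all genes tested, with 1 called higher, 1 called lower and 16 not called. Their levels summed to 2744 and 3846 TPM in Qk_KO replicates 1 and 2, against 3541 and 3819 TPM in control replicates 1 and 2. The sum was lowest in Qk_KO replicate 1, while Qk_KO replicate 2 stood just above both controls. Leaving out Fdps and Hmgcs1, the largest terms, gave 1818 and 2517 TPM in Qk_KO and 2046 and 2175 TPM in control. Because the 2 Qk_KO libraries lay on opposite sides, the median of the enzymes was 0.20 without Qk_KO replicate 1 and -0.24 without Qk_KO replicate 2, so no direction of the pathway in Qk_KO cells can be given from these libraries.

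Each Qk_KO library was also read alone, without a test, since that leaves 1 library against 2. Qk_KO replicate 1 was below both controls for 13 of the 18 enzymes, beside 38.8% of all genes tested, and above both for 2, which were Nsdhl and Ebp. Qk_KO replicate 2 was above both controls for 11 of the 18, beside 45.4% of all genes tested, and below both for 2, which were Hmgcs1 and Sc5d. Against the control mean the median enzyme was at -0.24 in Qk_KO replicate 1 and 0.20 in Qk_KO replicate 2, whereas the median of all genes tested was 0.03 and 0.04. The enzymes that stood lowest in Qk_KO replicate 1 were Hmgcs1 at -1.24, Mvd at -0.84, Lss at -0.82 and Fdps at -0.54 log2 units from the control mean. In Qk_KO replicate 2 the highest were Ebp at 1.07, Acat2 at 0.64 and Dhcr7 at 0.50. Hmgcs1 and Ebp kept 1 direction in both libraries at differences of more than 0.5 log2 units, and they were the only enzymes to do so.

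**Figure D2:**
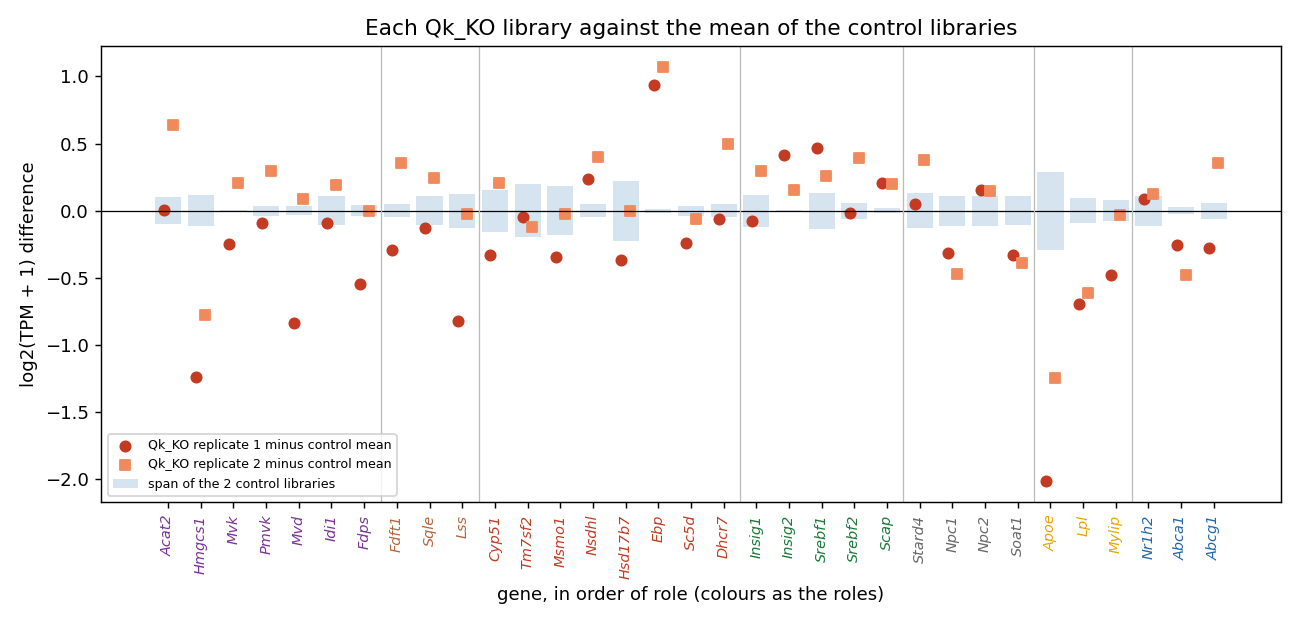
Difference of each Qk_KO library from the mean of the 2 control libraries, in log2(TPM + 1) units, for the 33 members in order of role. Pale bars span the 2 control libraries. For most synthesis enzymes the replicate 1 point lies below and the replicate 2 point above or near 0. Hmgcs1, Apoe and Lpl are among the members below 0 in both libraries, and Ebp is among those above 0 in both.

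The difference between the Qk_KO libraries ran through nearly the whole pathway. Qk_KO replicate 2 exceeded Qk_KO replicate 1 for 17 of the 18 enzymes, with a median difference of 0.42 log2 units. Over all genes tested 51.0% were higher in Qk_KO replicate 2, and the median difference was 0.01. For 7 of the 18 enzymes the difference was at least 0.5 log2 units (1.41-fold), a size that 5.99% of all genes reached in that direction. Mvd had the largest, 0.92, followed by Lss at 0.80, Fdft1 at 0.65 and Acat2 at 0.63. Ebp at 0.14 and Nsdhl at 0.16 had the smallest among those 17.

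Between the control libraries the difference was smaller for 15 of the 18 enzymes, beside 7093 of all 13260 genes tested. The exceptions among the enzymes were Tm7sf2, Msmo1 and Hsd17b7. Control replicate 2 exceeded control replicate 1 for 14 of the 18, with a median of 0.09 log2 units, beside 46.2% of all genes tested and a median of -0.02. None of the 18 enzymes was higher in control replicate 2 by 0.5 log2 units, beside 2.56% of all genes. With 1 library on each side, no test bears on these differences between replicates. Besides the sex-linked transcripts above, Acta2, the smooth muscle actin gene, separated the Qk_KO libraries. It had 3484 and 1604 TPM in Qk_KO, against 1289 and 1129.5 TPM in control. Acta2 made up most of a list of 9 pericyte, fibroblast and meninges genes, of which limma called 0. The rest of that list was mixed. Col1a1 was at 16.1 and 15.9 TPM in Qk_KO and 26.6 and 20.4 TPM in control, and Col3a1 at 6.37 and 8.05 TPM in Qk_KO and 7.84 and 9.64 TPM in control. The part of Acta2 and of the sex-linked transcripts in the enzyme levels was not tested.

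**Figure D3:**
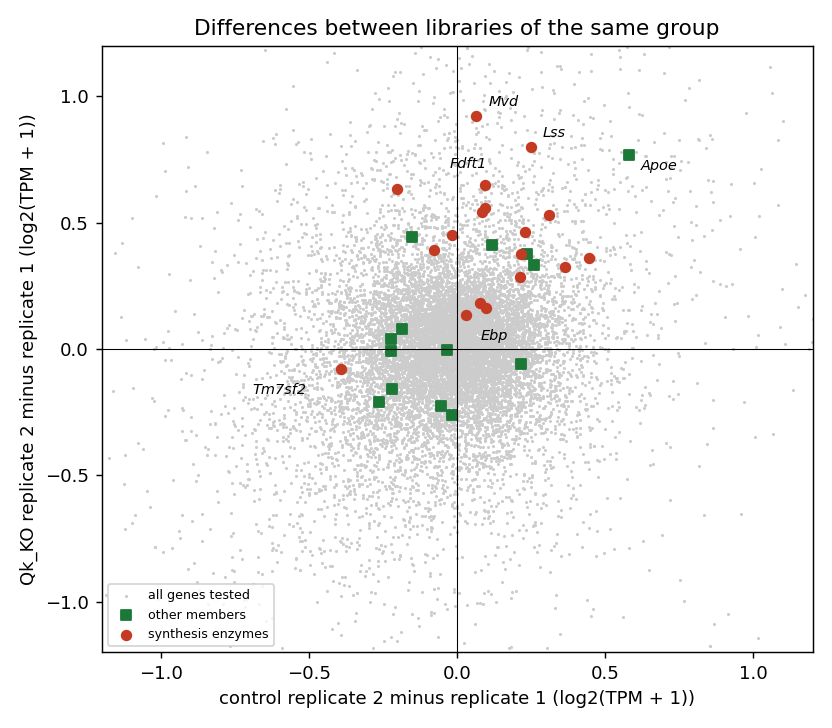
Difference between the 2 Qk_KO libraries (vertical) against the difference between the 2 control libraries (horizontal), both replicate 2 minus replicate 1 in log2(TPM + 1) units, for all genes tested (grey; 222 lie outside the axes), the synthesis enzymes and the other members tested. The enzymes lie above the horizontal line except Tm7sf2, with a median of 0.42 on the vertical axis and 0.09 on the horizontal axis.

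The 5 genes of sterol sensing had small positive log2 fold changes, between 0.11 and 0.36, and none was called. Srebf1, whose product mainly serves fatty acid synthesis, was at 69.9 and 60.3 TPM in Qk_KO, against 55.2 and 45.8 TPM in control. Scap, the escort, was at 129.8 and 129 TPM in Qk_KO, against 114 and 111 TPM in control. Insig2, a retention factor, was at 25.6 and 21.2 TPM in Qk_KO, against 19.0 and 18.8 TPM in control. For these 3 genes both Qk_KO libraries lay above both controls, with adjusted p of 0.158, 0.193 and 0.228 (limma, Benjamini-Hochberg). In both Srebf1 and Insig2, Qk_KO replicate 1 was the highest library, unlike the enzymes. Srebf2, the gene of the main sterol regulator, was at 354 and 472 TPM in Qk_KO and 345 and 375 TPM in control. Insig1, the retention factor that is itself an SREBP target, was at 155 and 201 TPM in Qk_KO and 150.4 and 178 TPM in control. Srebf2 and Insig1 shared the enzymes' order of the Qk_KO libraries, at 0.41 and 0.38 log2 units.

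Genes that move sterol inside the cell had no call either. Npc1 and Npc2 encode the membrane and soluble proteins that release cholesterol from lysosomes. Npc1 was at 68.9 and 61.6 TPM in Qk_KO, against 93.0 and 79.6 TPM in control, which is -0.40 ± 0.12 (SE) on the log2 scale (limma, Benjamini-Hochberg adjusted p = 0.110). Npc2 was at 171 and 170.3 TPM in Qk_KO and 166 and 142 TPM in control. The groups of each gene lay apart, Npc1 on the low side and Npc2 on the high side in Qk_KO. Soat1, which esterifies cholesterol for storage, was at 8.51 and 8.12 TPM in Qk_KO and 10.1 and 11.9 TPM in control (limma, Benjamini-Hochberg adjusted p = 0.186). Stard4, a sterol transfer protein gene and an SREBP target, was at 54.2 and 68.5 TPM in Qk_KO and 47.8 and 57.4 TPM in control, with overlapping groups.

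Apoe (Entrez gene 11816, chromosome 7, 19696244 to 19701310, GRCm38.p6) had the largest difference among the members. It reached 327 and 559 TPM in the Qk_KO libraries, against 1084 and 1620.3 TPM in control replicates 1 and 2. Every Qk_KO value was below every control value, and libraries of a group also differed, 1.71-fold within Qk_KO and 1.49-fold within control. The log2 fold change was -1.63 (SE 0.30), and the adjusted p of 0.0519 just missed the threshold (limma, Benjamini-Hochberg). Apoe passed with small RNA genes left out (adjusted p = 0.0414), with a mean of at least 5 TPM (0.0459) and with a pseudocount of 0.1 (0.0484). Over all alternatives its adjusted p ran from 0.00636 to 0.289 and its log2 fold change from -2.02 to -1.24.

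Lpl, the secreted lipase that frees fatty acids from lipoproteins, was at 6.10 and 6.51 TPM in Qk_KO, against 11.3 and 9.79 TPM in control. Its groups lay apart, at 59.9% of control, with an adjusted p of 0.0696 (log2 fold change -0.66, SE 0.15, limma with Benjamini-Hochberg adjustment). Mylip, a ubiquitin ligase that removes lipoprotein receptors, was at 2.92 and 4.33 TPM in Qk_KO and 4.75 and 4.17 TPM in control, with overlapping groups. Apoe and Lpl are also expressed by microglia and macrophages, and the sum of that list was lower in Qk_KO too. Its 12 genes summed to 30.3 and 22.4 TPM in Qk_KO and 64.2 and 54.5 TPM in control. Of the 9 genes tested limma called 0, with 8 at an unadjusted p under 0.05, beside 3760 of all 13260 genes tested. All 12 were detected in at least 1 library, and P2ry12, a defining microglial receptor gene, was at 0 in Qk_KO replicate 1 and control replicate 1 and at most 0.04 TPM elsewhere. The sum was lower in Qk_KO replicate 2 than in replicate 1, while Apoe was higher there. The part of this list in the Apoe and Lpl values was not tested, and in these bulk samples fewer cells of a type and less RNA per cell cannot be told apart.

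Efflux was read from 3 genes. Abca1, the pump that loads apolipoproteins, was at 30.7 and 26.1 TPM in Qk_KO, against 37.5 and 36.1 TPM in control. Its groups did not overlap, and the log2 fold change of -0.36 (SE 0.12) had an adjusted p of 0.129 (limma, Benjamini-Hochberg). Nr1h2, the gene of the LXR beta receptor, was at 84.8 and 87.2 TPM in Qk_KO and 86.4 and 73.9 TPM in control. Abcg1 was at 0.470 and 1.28 TPM in Qk_KO and 0.860 and 0.710 TPM in control and was not tested. Nr1h2 and Abcg1 had overlapping groups.

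**Figure D4:**
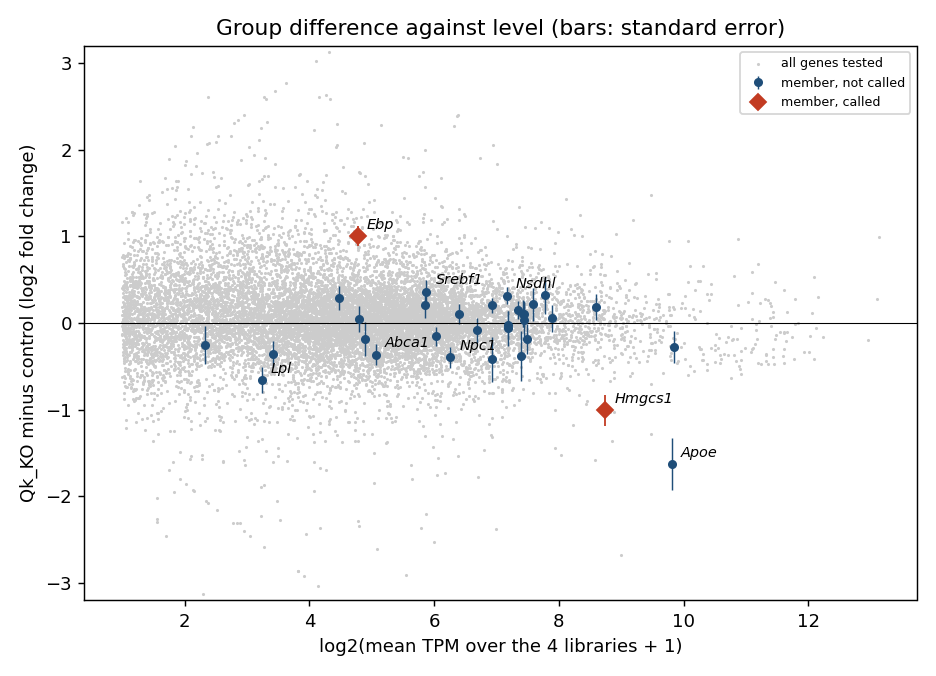
Log2 fold change of Qk_KO minus control against the mean level, for all genes tested (grey; 17 lie outside the axes) and the 32 members tested, with standard errors. Hmgcs1 at -1.01 and Ebp at 1.005 are the called members, and Apoe at -1.63 is the lowest member but was not called.

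Over the 32 members tested, log2 fold changes ran from -1.63 to 1.005, with 16 above and 16 below 0, and the median was 0.01, beside 0.04 over all genes tested. Both Qk_KO libraries lay above both controls for 6 members and below both for 7. Over all genes tested those shares were 33.6% and 27.5%, so separation of the groups was no more common among the members than elsewhere. An exact permutation test of 2 against 2 libraries cannot give a p below 0.333. At an unadjusted p under 0.05, limma listed 8 of the 32 members, beside 3760 of all 13260 genes tested.

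**Figure D5:**
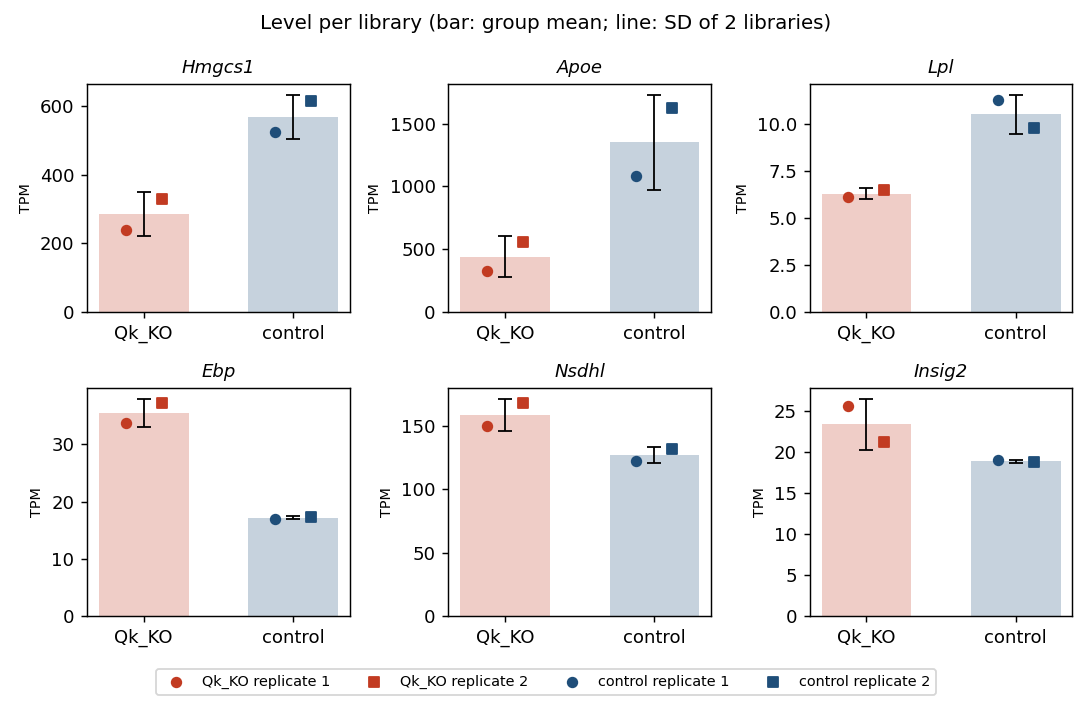
Level in TPM of 6 members whose groups did not overlap, 1 point per library, with the group mean as a bar and the SD of 2 libraries as a line. Hmgcs1, Apoe and Lpl lie lower in Qk_KO, and Ebp, Nsdhl and Insig2 lie higher, with Hmgcs1 and Ebp called.

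The rest of sterol and lipid metabolism was read from 6 further lists, given here by counts. For comparison, 3760 of all 13260 genes tested had an unadjusted p under 0.05 in limma. Of 20 genes tested from other mevalonate and sterol synthesis steps, limma called 0 (3 at an unadjusted p under 0.05), and Cyb5r3, a reductase that passes electrons to sterol enzymes, was at 288 and 284 TPM in Qk_KO and 289 and 273 TPM in control. Of 15 genes of SREBP processing, 2 had an unadjusted p under 0.05 in limma. By call, 1 of the 15 fell and 0 rose, beside 1.42% and 1.83% of all genes tested. That gene was Aup1, a lipid droplet and endoplasmic reticulum protein gene that takes part in degrading sterol-regulated proteins, at 87.0 and 88.1 TPM in Qk_KO against 124 and 129 TPM in control (log2 fold change -0.53, SE 0.09, limma, Benjamini-Hochberg adjusted p = 0.0470). The Aup1 values of each group lay close together and the groups lay apart. Its call sat near the threshold and was lost with no filter on low values, where 0 genes were called.

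Of 15 fatty acid genes targeted by SREBP1, 1 rose and 0 fell, beside 1.83% and 1.42% of all genes tested. An unadjusted p under 0.05 in limma was found for 8 of the 15, beside 3760 of all 13260 genes tested. Lpin1, a phosphatidate phosphatase gene, was at 63.7 and 80.2 TPM in Qk_KO, against 41.0 and 40.0 TPM in control (log2 fold change 0.80, SE 0.14, limma, Benjamini-Hochberg adjusted p = 0.0480). That call, too, sat near the threshold and was lost with no filter on low values. Qk_KO replicate 2 exceeded replicate 1 for 14 of these 15 genes, with a median of 0.33 log2 units, the nearest of the 6 lists to the enzymes' pattern. The median log2 fold change of the list was -0.19. A pair of uncalled genes, chosen after their values were seen, lay on the other side of control from Lpin1. Scd1, a stearoyl-CoA desaturase gene, was at 81.4 and 109.8 TPM in Qk_KO and 169 and 206 TPM in control, and Me1, the cytosolic malic enzyme gene, at 68.2 and 74.4 TPM in Qk_KO and 112 and 147 TPM in control. Both were below both controls in each Qk_KO library, with an adjusted p of 0.0513 each (limma, Benjamini-Hochberg). Limma called no gene in the lists of sterol and lipoprotein uptake (13 tested, 5 at an unadjusted p under 0.05), of LXR partners and export (14 tested, 5 at that level), or of intracellular transfer, esters and oxysterols (19 tested, 8 at that level). Their medians were 0.07, -0.01 and 0.19. Clu, another apolipoprotein gene of glia, was at 497 and 430.0 TPM in Qk_KO, against 273 and 314 TPM in control, with a Benjamini-Hochberg adjusted p of 0.0515 by limma. Mfge8, a secreted lipid-binding protein gene, was at 179.8 and 288 TPM in Qk_KO and 377 and 436 TPM in control. Clu and Apoe thus lay on opposite sides of control without either being called. Lrpap1, the chaperone of lipoprotein receptors, was at 167 and 179 TPM in Qk_KO and 144 and 143 TPM in control, and Scarb1, a lipoprotein receptor gene, at 75.1 and 89.0 TPM in Qk_KO and 70.5 and 71.6 TPM in control. Gramd1a, a sterol transfer protein gene, was at 183 and 187 TPM in Qk_KO and 162 and 127 TPM in control, and Tmem97, a sterol-binding protein gene, at 78.0 and 76.7 TPM in Qk_KO and 59.8 and 64.8 TPM in control. Lrpap1, Scarb1, Gramd1a and Tmem97 lay above both controls in each Qk_KO library, and none passed the test.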

How the data were processed

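Each deposited table gives 1 library's TPM per gene, labelled by Entrez number and symbol. Its values total 1000000 apart from rounding. The submitters' processing notes name STAR 2.4.1d, RSEM 1.3.0, GRCm38.p4 and mm10. Poly(A) RNA was read by Ion Proton, per the labels' protocols. The sources used here do not give the annotation, strand setting or read filters. TPM is a share of a total, so a rise of abundant genes lowers others, and depth is unknown.

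Deposited TPM was turned into log2(TPM + 1). Genes averaging 1 TPM or more were fitted in R 4.3.3 with limma 3.58.1 (lmFit, then eBayes with trend), Qk_KO minus control, and p-values were Benjamini-Hochberg adjusted over all genes tested. The members and lists were chosen with earlier results of these data known, as was the difference of 0.5 log2 units used between single libraries. The rule for named genes took all members, Qk, and from each further list every called gene or the 2 most abundant, and 1 gene taken by it is left out here. The fit was tested on simulated data. Alternatives changed the pseudocount, filter, scaling, trend, robust setting, small RNA genes, replicate block and libraries. Promoter windows and gene positions came from RefSeq on GRCm38.p6. Plots used matplotlib 3.10.9 (Python 3.11.15).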

Additional observations from a re-analysis of the deposited data

How the results depend on the processing

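The calls among the members rested on few libraries and sat near the threshold. Of the 32 members tested, 1 was called higher and 1 lower. The number called higher was 0 with no filter on low values and 0 without a trend, where limma gave 8 and 7 members an unadjusted p under 0.05, and 0 to 0 over the fits that each left out 1 library. The number called lower was 2 with a pseudocount of 0.1, with a mean of at least 5 TPM and with small RNA genes left out, each time with Apoe added. It was 0 with no filter, with quantile normalization, without a trend and with robust settings, where limma gave 7 or 8 members an unadjusted p under 0.05, and 0 to 1 over the fits that left out 1 library. Over all genes, 242 higher and 188 lower calls became 0 and 0 with no filter (4327 genes at an unadjusted p under 0.05 in limma), 23 and 18 without a trend, and 437 and 328 with small RNA genes left out. The lower calls were 304 with a mean of at least 5 TPM. Leaving out 1 library gave 0 to 88 higher and 4 to 60 lower calls. The cause of these changes was not tested.

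The labels do not say that replicate numbers mark a shared source, and 2 pairs are too few to decide it. Deviations of same-numbered libraries from their group means correlated at 0.11 over genes. With the replicate block, 753 genes were called higher and 525 lower, and 1 member higher and 2 lower, the second being Apoe (limma, Benjamini-Hochberg adjusted p = 0.00636).

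Signs of small differences were not stable. The median log2 fold change of the members, 0.01, was -0.027 with median-ratio scaling and -0.011 with quantile normalization, and Fdft1 was at -0.00095 with median-ratio scaling. Leaving out 1 library moved the median of the members between -0.19 and 0.15 and that of the synthesis enzymes between -0.24 and 0.20. Log2 fold changes then ran from -0.25 to 0.21 for Mvk, -0.092 to 0.30 for Pmvk, -0.84 to 0.084 for Mvd, -0.092 to 0.19 for Idi1, -0.29 to 0.36 for Fdft1, -0.13 to 0.25 for Sqle, -0.33 to 0.21 for Cyp51, -0.28 to 0.11 for Tm7sf2, -0.41 to 0.039 for Hsd17b7, -0.061 to 0.50 for Dhcr7, -0.080 to 0.30 for Insig1, -0.020 to 0.39 for Srebf2 and -0.0063 to 0.22 for Nr1h2. Every other member tested kept its sign under every alternative that tested it. TPM keeps no depth, so what read number limits cannot be stated.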
